A study of Mus musculus with 8 samples.

Results

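Dermal fibroblast identity was followed here through 10 genes that are used to recognise fibroblasts by their surface or secreted markers and by their mesenchymal transcription factors, with the fibrous matrix genes left out. The members were every probe on the array whose gene name was Pdgfra, Pdgfrb, Cd34, Fap, Dpt, Pi16, Clec3b, Twist1, Twist2 or Prrx1, or a synonym of one, which gave 17 of 41174 probes, for 10 of 19503 named genes. All 17 carried the member's current symbol. Pdgfra and Fap had 2 probes each, Prrx1 had 6, and the other 7 genes had 1.

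The comparison was between 4 male SKH-1 mice, a hairless strain, given 1% w/v enalapril maleate in 30 vol % ethanol, and 4 given that ethanol alone. Both groups were 19 weeks old and had their backs irradiated with UVB for 10 weeks, so no mouse here had skin that was not irradiated. Application began 1 week after the last irradiation and was made 5 times a week for 2 weeks. Each mouse gave 1 dorsal skin RNA sample and 1 array. Elsewhere the depositors write of 6 animals in a group and of a 6-week course, neither of which is on the sample labels used here. Enalapril inhibits angiotensin-converting enzyme, and the comparison asks what its local inhibition changes in UVB-exposed skin.

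Fibroblasts of the dermis share an origin in mesenchyme and build the collagenous matrix of the skin. They sense platelet-derived growth factors through the receptor tyrosine kinases PDGFRA and PDGFRB, the first of which is a general marker of dermal fibroblasts and the second of which also marks pericytes. Twist1 and Twist2 are basic helix-loop-helix factors that bind E-box DNA as dimers, and Prrx1 is a paired-related homeobox factor; all are active in the mesenchyme from which dermis forms. CD34, PI16 and dermatopontin mark resting fibroblast populations in mouse skin, whereas FAP, a surface serine protease, is known from activated fibroblasts.

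Levels are log2 of the spot intensity relative to the 75th percentile of the same array, so a level of 0 equals that percentile. Levels of different probes are not read as a ranking of their genes. They are subtracted within gene pairs and summed within lists only to set the groups side by side, and bright probes weigh most in the sums. The share of spots well above background ran from 67.1% to 72.7%, with 0 spots saturated. Enalapril was hybridised on slide 2 and vehicle on slide 1, each scanned in a session of its own, so the effect of the drug and that of the slide cannot be told apart for any gene. The local background had a median of 48 to 52 units of intensity for enalapril and 57.5 to 66 for vehicle. Dorsal skin was recognisable by its epidermis, with all 10 epidermal keratinocyte genes examined well above background on all 8 arrays. The brightest probe of each of the 10 fibroblast genes, called its leading probe below, was also well above background on all 8 arrays.

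Of the 10 fibroblast identity genes, 2 were lower in enalapril-treated skin and 8 did not pass the test. Cd34 fell 1.33-fold and Clec3b 1.52-fold, and both PDGF receptor genes, all 3 transcription factor genes, Fap, Dpt and Pi16 did not pass the test. By limma's moderated test over 28580 probes, with Benjamini-Hochberg adjustment and an adjusted p under 0.05 as the call, 2 of the 15 member probes tested were called. Over all probes tested 10.4% were called, 3.82% being higher and 6.61% lower in enalapril. No member probe was higher by this test, and at an unadjusted p under 0.05 the same 2 probes, both lower, passed and none higher. The median log2 change was −0.01 over the 15 member probes and −0.05 over all probes tested. The share of members called stands near that of the whole array and is not a result about fibroblast genes as a group.

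**Figure D1:**
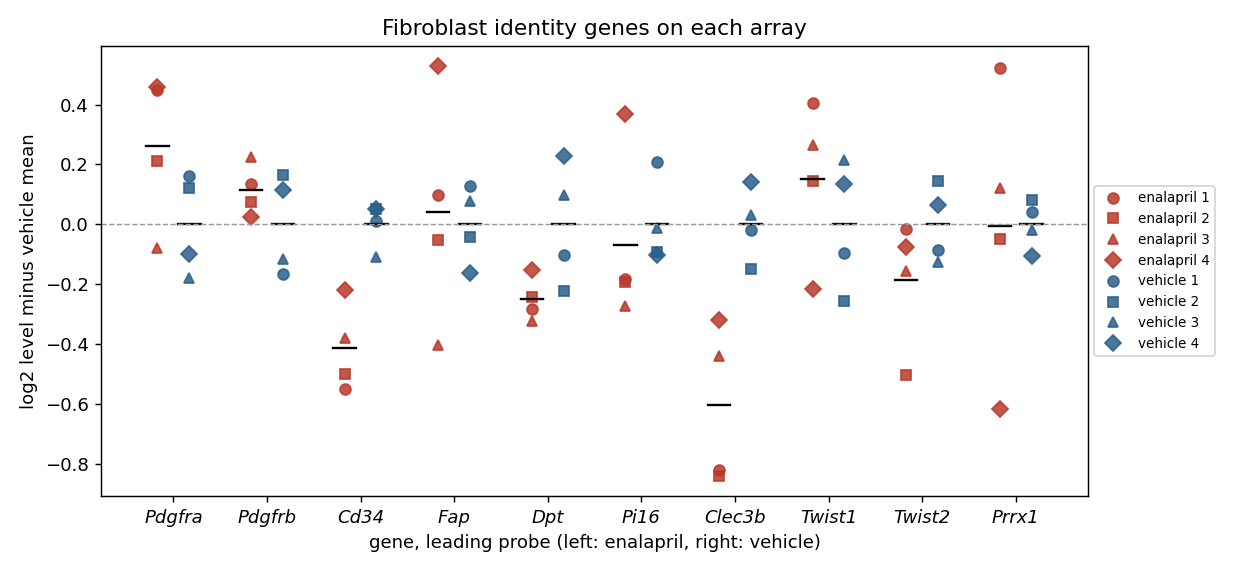
Level of the leading probe of each fibroblast identity gene on each of the 8 arrays, as log2 minus the mean of the 4 vehicle arrays, with enalapril (red) left of vehicle (blue) and a black bar at each group mean. The groups are apart for Cd34 and Clec3b and overlap for the other 8 genes.

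Cd34 encodes a sialomucin on the surface of dermal fibroblasts, which endothelium, the hair follicle bulge and blood progenitors carry as well. Its log2 level on probe A_51_P204740 was 5.09, 5.14, 5.26 and 5.42 on enalapril arrays 1 to 4, against 5.65, 5.69, 5.53 and 5.69 on vehicle arrays 1 to 4. All 4 enalapril arrays lay below all 4 vehicle arrays, with a gap of 0.11 between the groups. The mean was 5.23 ± 0.14 in enalapril and 5.64 ± 0.07 in vehicle (SD, n = 4 each). The log2 change was −0.41 ± 0.10 (SE, limma, adjusted p = 0.0430), with a 95% interval of −0.65 to −0.17. In whole skin, fewer cells of a type and less RNA per cell cannot be told apart.

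Clec3b encodes tetranectin, a secreted C-type lectin that binds plasminogen and is produced by mesenchymal cells. On probe A_51_P486239 it stood at log2 levels of 1.38, 1.36, 1.76 and 1.88 on enalapril arrays 1 to 4, against 2.18, 2.05, 2.23 and 2.34 on vehicle arrays 1 to 4. Here too every enalapril array lay below every vehicle array, by a gap of 0.17. The change was −0.61 ± 0.15 (SE, limma, adjusted p = 0.0370; 95% interval −0.94 to −0.27). A lower change than that of Clec3b was seen in 6.15% of all tested probes, and a lower one than that of Cd34 in 14.4%. Without overlap between groups, 2 of the 15 tested member probes were lower and 0 higher, where 20.2% of all tested probes had groups apart, 13.1% lower and 7.12% higher.

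Both calls depended on single arrays and on the scaling. Each ended when any one of the 7 arrays other than enalapril 4 was left out, with adjusted p from 0.0582 to 0.114 for Cd34 and 0.0678 to 0.0938 for Clec3b. Without enalapril 4, adjusted p was 0.0125 for Cd34 and 0.0111 for Clec3b. On that array both genes stood nearest to the vehicle group. The calls also ended under other settings, in which the size of the change went either way. For Cd34 the log2 change was −0.45 by array median centring (adjusted p = 0.0723), −0.47 by E1A control centring (0.274), −0.61 by normexp (0.413), −0.78 in the series matrix values (0.115), −0.41 with no filter on dim probes (0.0750) and −0.18 by quantile normalization (0.229). For Clec3b it was −0.64 by array median centring (adjusted p = 0.0572), −0.67 by E1A control centring (0.176), −0.79 by normexp (0.413), −0.97 in the series matrix values (0.0532), −0.61 with no filter (0.0657) and −0.49 by quantile normalization (0.0671). Both genes were lower in enalapril in all 20 other processings, leave-outs included. Those that changed only the filter, the probes kept, the variance model or a block by replicate number left the estimates at −0.41 and −0.61. Their direction was thus fixed in advance and is no further evidence.

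**Figure D2:**
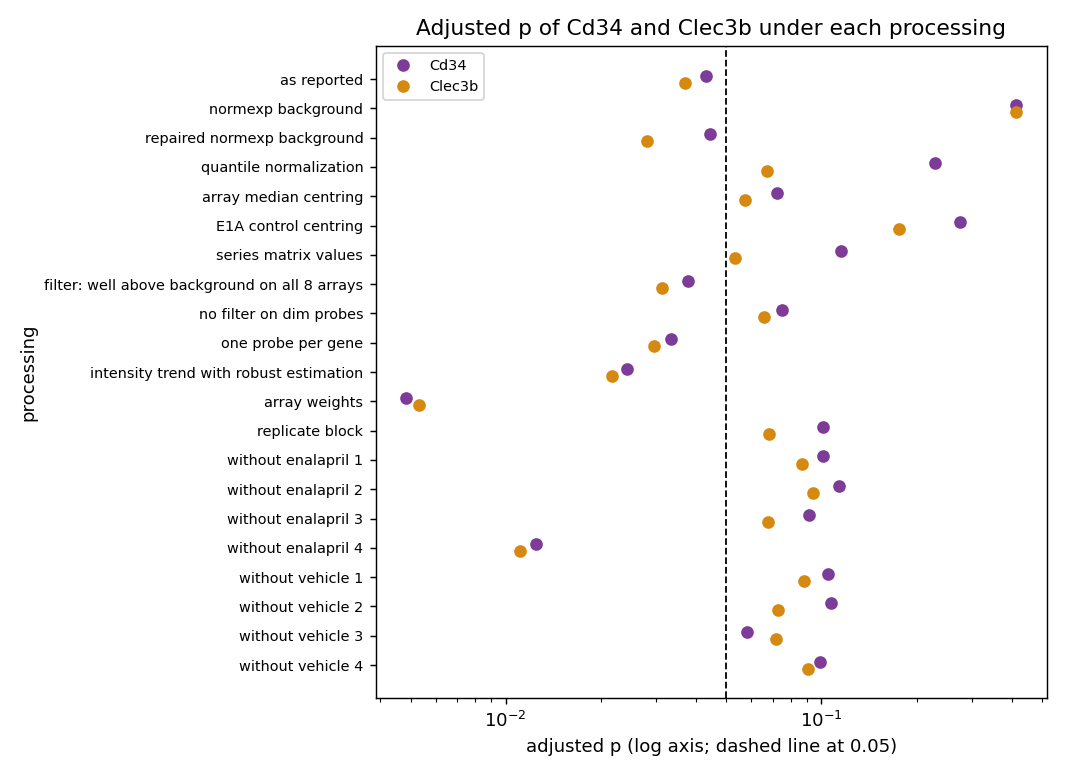
Adjusted p of Cd34 (purple) and Clec3b (orange) on a log axis, as reported and under each other processing, with a dashed line at 0.05. Points left of the line are calls, and without enalapril 4 both genes move left to 0.0125 and 0.0111, while every other leave-out lies right of the line.

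The array enalapril 4 weighed on the whole table, which gave 6991 called probes without it, against 2979 with all 8 arrays and 396 to 1720 without any other single array. The counts in gene lists given next use the leading probe of each gene and were not repeated with arrays left out. Called probes of these lists that were not the leading one are named beside the counts.

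Other cell types that carry Cd34 were read on the same arrays. Of 13 endothelial genes tested 0 were called by limma in either direction, with a median log2 change of −0.12, and their summed level was 26.6 to 34.1 in enalapril and 29.6 to 34.9 in vehicle, in multiples of the 75th percentile. The endothelial genes with the smallest p were Egfl7 at −0.54 ± 0.18 (SE, adjusted p = 0.0859), Cldn5 at −0.38 ± 0.13 (0.0950) and Emcn at −0.44 ± 0.16 (0.107). The list was split around 0, with 6 genes above and 7 below, and the receptor gene Kdr was at 0.40 (0.247) and Pecam1 at 0.09 (0.759). Of 10 bulge genes, Lgr5, a stem cell receptor of the hair follicle, rose by 1.00 ± 0.12 (adjusted p = 0.00918). The transcription factor gene Sox9 was called on a dimmer probe at 1.31 ± 0.32 (0.0401) and not on its leading probe at 0.39 ± 0.22 (0.282). The bulge keratin gene Krt15 was at −0.16 (adjusted p = 0.421). Tcf7l1 was at 0.34 on its leading probe (0.1) and at −0.65 on its other probe (0.0535). No bulge gene was called lower. Of 8 mast cell genes, 0 were called, with summed levels of 20 to 40 in enalapril and 25.6 to 40 in vehicle. Every gene of these 3 lists was above background on some array. The part of these cell types in the change of Cd34 was not tested.

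Dpt encodes dermatopontin, a small matrix protein that is widely used as a fibroblast marker. It was at log2 levels of 4.07, 4.11, 4.03 and 4.20 on enalapril arrays 1 to 4, against 4.25, 4.13, 4.45 and 4.58 on vehicle arrays 1 to 4. The groups overlapped, since vehicle 2 lay below enalapril 4. Its change of −0.25 ± 0.12 did not pass (limma, adjusted p = 0.2; 95% interval −0.52 to 0.02). Pi16, a peptidase inhibitor gene that marks adventitial fibroblasts in mice, stood at 4.20, 4.19, 4.11 and 4.75 on enalapril arrays, against 4.59, 4.29, 4.37 and 4.28 on vehicle arrays. In enalapril, 3 arrays lay below all vehicle arrays and enalapril 4 above them all. Pi16 changed by −0.07 ± 0.16 (adjusted p = 0.795; 95% interval −0.43 to 0.29), and by −0.22 (adjusted p = 0.169) without enalapril 4.

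The promoter windows of Cd34, which was called, and of Dpt, which was not, are shown because E-boxes are the sites that Twist dimers bind. The 300-base windows around the gene start are from RefSeq for build GRCm38.p6, at chr1:194938571-194938870 (+ strand) and chr1:164796413-164796712 (+ strand). Capitals mark E-boxes, searched as CANNTG, which reads the same on both strands, and TAATTA, a homeodomain core site that also reads the same on both strands.
Cd34: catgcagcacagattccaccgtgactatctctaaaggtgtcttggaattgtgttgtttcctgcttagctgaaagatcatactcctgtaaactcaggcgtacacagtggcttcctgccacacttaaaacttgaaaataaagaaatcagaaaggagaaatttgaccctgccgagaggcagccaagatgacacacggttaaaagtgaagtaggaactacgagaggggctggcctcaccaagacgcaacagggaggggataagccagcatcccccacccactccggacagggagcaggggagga
Dpt: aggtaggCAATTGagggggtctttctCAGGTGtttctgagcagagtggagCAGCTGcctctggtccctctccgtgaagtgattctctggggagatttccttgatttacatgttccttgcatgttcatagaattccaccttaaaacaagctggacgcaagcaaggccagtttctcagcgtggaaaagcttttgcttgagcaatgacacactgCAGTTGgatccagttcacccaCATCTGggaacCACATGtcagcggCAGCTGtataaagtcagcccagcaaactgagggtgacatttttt
The Dpt window holds 7 E-boxes and the Cd34 window 0, and neither holds TAATTA. Of 32851 promoter windows of 300 bases in the table, 72.3% hold an E-box and 5.29% hold TAATTA. Windows were listed for 7 of the 10 members, of which Dpt, Pdgfra and Pi16 hold an E-box, and Prrx1 alone holds TAATTA, at 1 site that overlaps no E-box. These matches describe letters in the windows and show no binding.

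The PDGF receptor genes did not pass the test in either direction. Pdgfra, on a probe printed at 10 spots per array (A_51_P345649), was at log2 levels of 0.91, 0.67, 0.38 and 0.92 on enalapril arrays 1 to 4, against 0.62, 0.58, 0.28 and 0.36 on vehicle arrays 1 to 4. Enalapril 1, 2 and 4 lay above all vehicle arrays, and enalapril 3 lay among them. The change was 0.26 ± 0.15 (SE, limma, adjusted p = 0.281), and the 95% interval of −0.08 to 0.60 includes 0. A dimmer probe of the same transcript gave −0.06 ± 0.14 (adjusted p = 0.826). The intensity of that dimmer probe was low, at 41.2 to 80.9, against 1070 to 2300 on the leading probe. In the uncentred series matrix values, where the median of all probes was −0.41, the brighter probe turned to −0.11.

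Pdgfrb stood at 2.99, 2.93, 3.08 and 2.88 on enalapril arrays, against 2.69, 3.02, 2.74 and 2.97 on vehicle arrays. The groups overlapped, with vehicle 1 and 3 lowest. Its change was 0.11 ± 0.11 (adjusted p = 0.538; 95% interval −0.14 to 0.37). The change of Pdgfra minus that of Pdgfrb was 0.15 ± 0.20 log2 (SE, exact permutation test over 70 splits, two-sided, p = 0.486, adjusted over 2 pairs 0.486), where the smallest p the design allows is 0.0286. It was 0.05 without enalapril 4 and 0.29 without enalapril 3, the ends of its range with single arrays left out. The within-array difference between these probes was −2.25 ± 0.32 in enalapril and −2.39 ± 0.23 in vehicle (SD, n = 4 each).

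Pericyte and smooth muscle genes, whose cells share Pdgfrb, included 4 of 13 that fell and 0 that rose (limma, adjusted p under 0.05), with a median log2 change of −0.31. Over all tested probes, 6.61% were called lower. Their summed level was 80.7 to 91.2 in enalapril and 107 to 126 in vehicle. Kcnj8, a potassium channel gene of pericytes, fell by 0.64 ± 0.11 (adjusted p = 0.0172), Tagln by 0.52 ± 0.10 (0.0238) and the myosin light chain gene Myl9 by 0.58 ± 0.12 (0.0246). Another probe of Kcnj8 gave −0.21 and another of Tagln −0.16. The list was split around 0, with 9 genes below and 4 above. The smooth muscle myosin gene Myh11 was at 0.36 (adjusted p = 0.159), Notch3 at 0.03 (0.850), Cspg4 at 0.06 (0.825) and Mcam at 0.06 (0.754), with 0.65 on another probe of Mcam (0.0561). Their part in the level of Pdgfrb was not tested.

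The ligands of these receptors did not pass either. Pdgfa, which signals through PDGFRA, was at −0.29 ± 0.14 (limma, adjusted p = 0.190), and Pdgfb, which binds both receptors, at −0.25 ± 0.21 (0.468). Pdgfc was at −0.11 ± 0.12 (0.596) and Pdgfd at −0.06 ± 0.41 (0.939). Other probes gave −0.01 for Pdgfa, 0.33 for Pdgfb, 0.12 for Pdgfc and −0.45 for Pdgfd. With the receptor-like gene Pdgfrl, 0 of 5 genes were called.

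Fap, the serine protease of activated fibroblasts, was at log2 levels of −0.41, −0.56, −0.91 and 0.02 on enalapril arrays 1 to 4, against −0.38, −0.55, −0.43 and −0.67 on vehicle arrays 1 to 4. Enalapril held both the lowest and the highest array, and the vehicle arrays lay between. The change was 0.05 ± 0.19 (limma, adjusted p = 0.897; 95% interval −0.38 to 0.47), and it was −0.12 (adjusted p = 0.578) without enalapril 4. A second probe of Fap was not well above background on any vehicle array, was so on 3 enalapril arrays, and was not tested. Among 5 related prolyl peptidases, Dpp7, a lysosomal enzyme, fell by 0.47 ± 0.09 (adjusted p = 0.0246), with −0.11 on its other probe. Dpp4, the surface peptidase CD26 that marks a fibroblast lineage in mouse skin, was at −0.22 ± 0.11 (adjusted p = 0.210), with 0.05 and 0.04 on other probes.

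**Figure D3:**
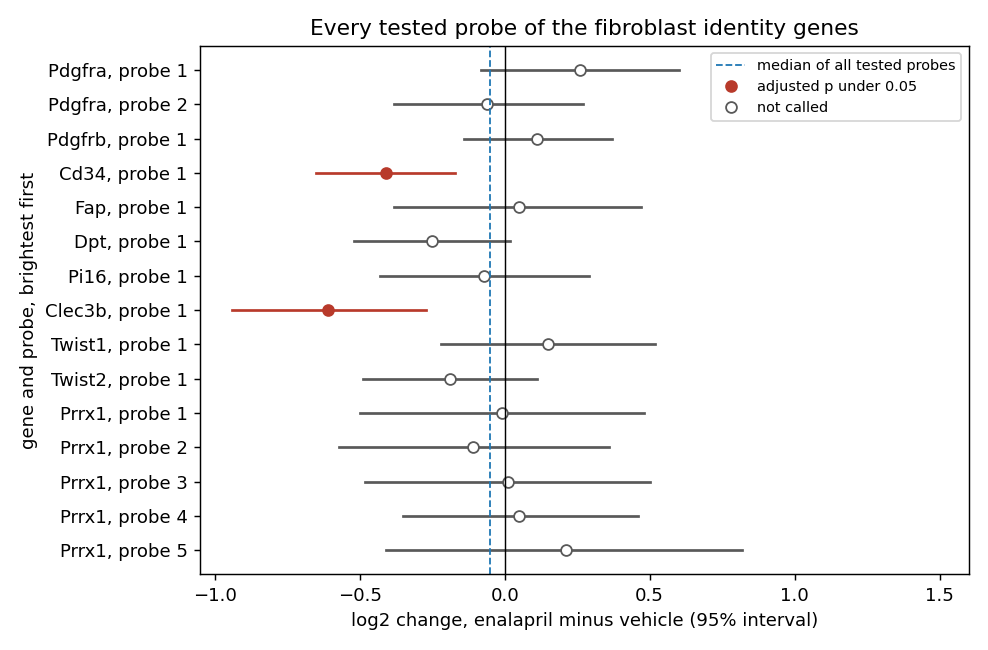
Log2 change, enalapril minus vehicle, of the 15 tested probes of the fibroblast identity genes, with 95% intervals from limma. Filled red points are called, the dashed line is the median of all tested probes at −0.05, and the intervals of all probes but those of Cd34 and Clec3b include 0.

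None of the transcription factor genes passed the test. Twist1 was at log2 levels of 0.92, 0.66, 0.78 and 0.30 on enalapril arrays 1 to 4, against 0.42, 0.26, 0.73 and 0.65 on vehicle arrays 1 to 4. The groups overlapped widely, and the change was 0.15 ± 0.16 (limma, adjusted p = 0.579; 95% interval −0.22 to 0.52). Twist2, its paralog of the dermis, stood at 0.49, 0.00, 0.35 and 0.43 on enalapril arrays, against 0.42, 0.65, 0.38 and 0.57 on vehicle arrays. The lowest value was on enalapril 2, and the change was −0.19 ± 0.13 (adjusted p = 0.381; 95% interval −0.49 to 0.11). The paralogs differed in change by 0.34 ± 0.23 log2 (SE, exact permutation test, two-sided, p = 0.229, adjusted over 2 pairs 0.457) and the difference did not pass. With single arrays left out it ranged from 0.20 without vehicle 2 to 0.50 without enalapril 4, where the exact permutation p was 0.0571. Cross-hybridisation between them was not examined, since the array files used here hold no probe sequences.

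Prrx1 was read by 6 probes, of which 3 stand for transcript variant 1, 1 for variant 2 and 2 for cDNA clones that the array design lists under Prrx1 with an unclassifiable product. The leading probe was at log2 levels of 2.16, 1.59, 1.76 and 1.02 on enalapril arrays 1 to 4, against 1.68, 1.72, 1.62 and 1.53 on vehicle arrays 1 to 4. Enalapril 1 was highest and enalapril 4 lowest, with all vehicle arrays between them. The other variant 1 probes gave the same order of the enalapril arrays, at 1.79, 1.22, 1.38 and 0.82 and at 1.25, 0.67, 0.80 and 0.23. The group means of the leading probe were 1.63 ± 0.47 in enalapril and 1.64 ± 0.08 in vehicle (SD, n = 4 each). The 3 variant 1 probes changed by −0.01, −0.11 and 0.01 with adjusted p from 0.762 to 0.985 (limma). Without enalapril 4 the leading probe was at 0.20 (adjusted p = 0.344).

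The variant 2 probe of Prrx1 changed by 0.05 ± 0.18 (limma, adjusted p = 0.871), and 1 clone probe by 0.21 ± 0.27 (0.651). Both were dim, with intensities of 50 to 123 and 10.6 to 36. The other clone probe was not well above background on any vehicle array and was so on 3 enalapril arrays. The groups overlapped, since enalapril 4 at −7.18 lay below 3 vehicle arrays. It had a mean log2 level of −5.88 in enalapril and a measured mean of −7.13 in vehicle. With the lowest signal well above background as the floor on each vehicle array, its mean was 1.20-fold higher in enalapril. With that floor the second Fap probe differed by −0.04 log2. Neither probe was tested, since too few arrays were above background, and no rise is established. Prrx2, the paralog gene of Prrx1, was at 0.03 ± 0.19 (adjusted p = 0.940).

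**Figure D4:**
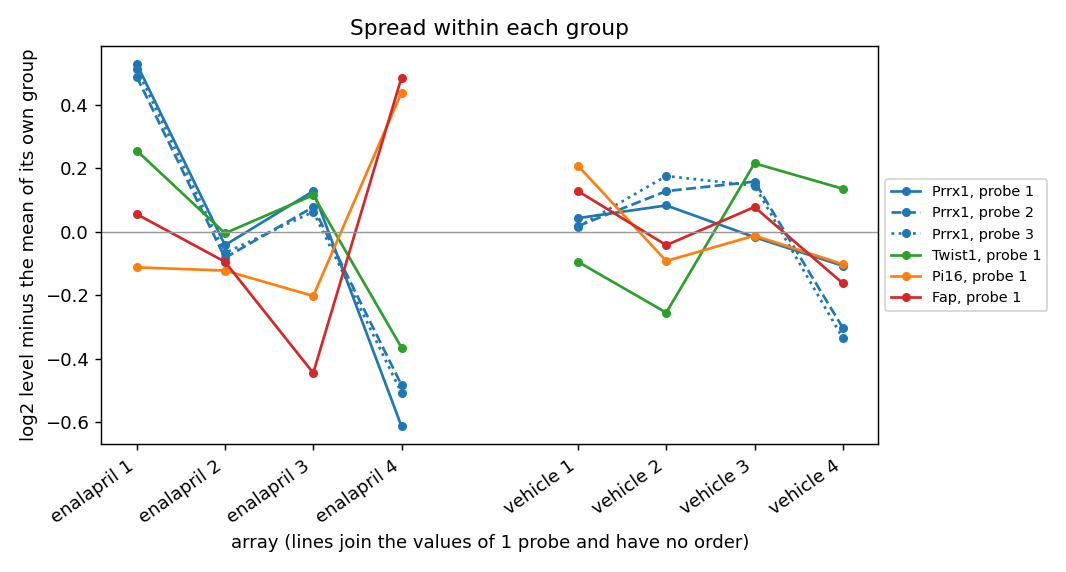
Log2 level minus the mean of its own group for 3 probes of Prrx1 (transcript variant 1), Twist1, Pi16 and Fap, on the enalapril arrays (left) and vehicle arrays (right). On enalapril 4, Prrx1 and Twist1 are lowest and Pi16 and Fap highest of their group.

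The dimerisation partners of Twist factors were examined next. Among 7 E protein and Id genes, 0 were called (limma), with a median log2 change of 0. Tcf12, an E protein gene, was at 0.64 ± 0.22 (adjusted p = 0.0961), and Id4 and Id3, inhibitors that cannot bind DNA, were at −0.52 ± 0.18 (0.0969) and −0.30 ± 0.13 (0.153). Other probes of Tcf12 gave 0.09, 0.61, 0.52 and 0.63. The list was split, with 3 genes above 0, 3 below and 1 at 0. Of 17 other mesenchymal transcription factor genes tested of 19, 0 were called on their leading probe, with a median of −0.13. Foxp1, at 0.22 on its leading probe (adjusted p = 0.350), was called on a dimmer probe at 0.87 ± 0.23 (0.0474). Runx1 was at 0.78 ± 0.24 (adjusted p = 0.0719), Foxp2 at −0.67 ± 0.22 (0.0846) and Foxc2 at −0.27 ± 0.12 (0.183). The other probe of Runx1 went the other way, at −0.29 (adjusted p = 0.189). En1 and Tcf21 were not tested because too few arrays were above background.

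Of 22 other surface or lineage markers of skin fibroblasts, 2 fell and 0 rose (limma), where 6.61% of all tested probes were called lower. The median log2 change was −0.06. Cd81, a tetraspanin gene, fell by 0.45 ± 0.10 (adjusted p = 0.0311) and Procr, the protein C receptor gene, by 0.54 ± 0.13 (0.0366). S100a4, at −0.49 ± 0.15 (0.0737), did not pass. The list was split around 0, with 11 genes above and 11 below.

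Matrix genes that fibroblasts make were read on the same arrays. Of 14 such genes, 5 rose and 0 fell (limma), where 3.82% of all tested probes were called higher. The median log2 change was 0.27, against −0.04 over the 10 leading probes of the identity genes. The summed level of the matrix genes was 833 to 924 in enalapril and 707 to 1040 in vehicle, which overlap. Eln was at 0.78 ± 0.12 (adjusted p = 0.0159), Fbn1 at 0.85 ± 0.17 (0.0228; 1.09 on a called dimmer probe) and Col6a1 at 0.64 ± 0.14 (0.0298). Fn1 was called at 0.52 (0.0311), with 0.88 and −0.19 on its other probes. Col6a2 was called at 0.61 (0.0455), with −0.02 on its other probe. Col1a1, the gene of a type I collagen chain, was at 0.04 on its leading probe (adjusted p = 0.909), at 0.89 on a dimmer probe (0.0365) and at −0.01 on another (0.990), so its probes disagree. Whether the 2 lists differ was not tested.

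Adipocyte and skeletal muscle genes mark tissue that lies under the dermis. Over all tested probes, 6.61% were called lower, and the counts of both lists stand beside that share. Of 10 adipocyte genes 4 fell and 0 rose, with summed levels of 197 to 306 in enalapril and 303 to 392 in vehicle, which overlap. Slc2a4, the insulin-responsive glucose transporter gene, fell by 0.77 ± 0.14 (limma, adjusted p = 0.0185), Pck1 by 0.62 ± 0.12 (0.0238) and Cidec by 0.76 ± 0.16 (0.0266). Of 10 skeletal muscle genes 5 fell and 0 rose, with summed levels of 558 to 608 in enalapril and 651 to 950 in vehicle; among them were Mylpf at −0.85 ± 0.14 (0.0174), Tnnt3 at −0.76 ± 0.15 (0.0234; −0.69 on a called dimmer probe) and Tnnc2 at −0.69 ± 0.14 (0.0241). Among those not called, Lipe of adipocytes was at −0.12 (adjusted p = 0.711), and the muscle genes Atp2a1 and Myh4 were at −0.04 (0.933) and 0.22 (0.724). All genes of both lists were above background on some array. Of 8 macrophage and 8 Schwann cell genes 0 were called, with medians of −0.13 and −0.04, and the summed Schwann cell level was 19.8 to 24.6 in enalapril and 25.5 to 29.9 in vehicle. Of the 10 keratinocyte genes 0 were called on their leading probe, and Trp63 was called on a dimmer probe at 0.77 ± 0.20 (adjusted p = 0.0437). The part of these tissues and cells in the changes of Cd34 and Clec3b was not tested.

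**Figure D5:**
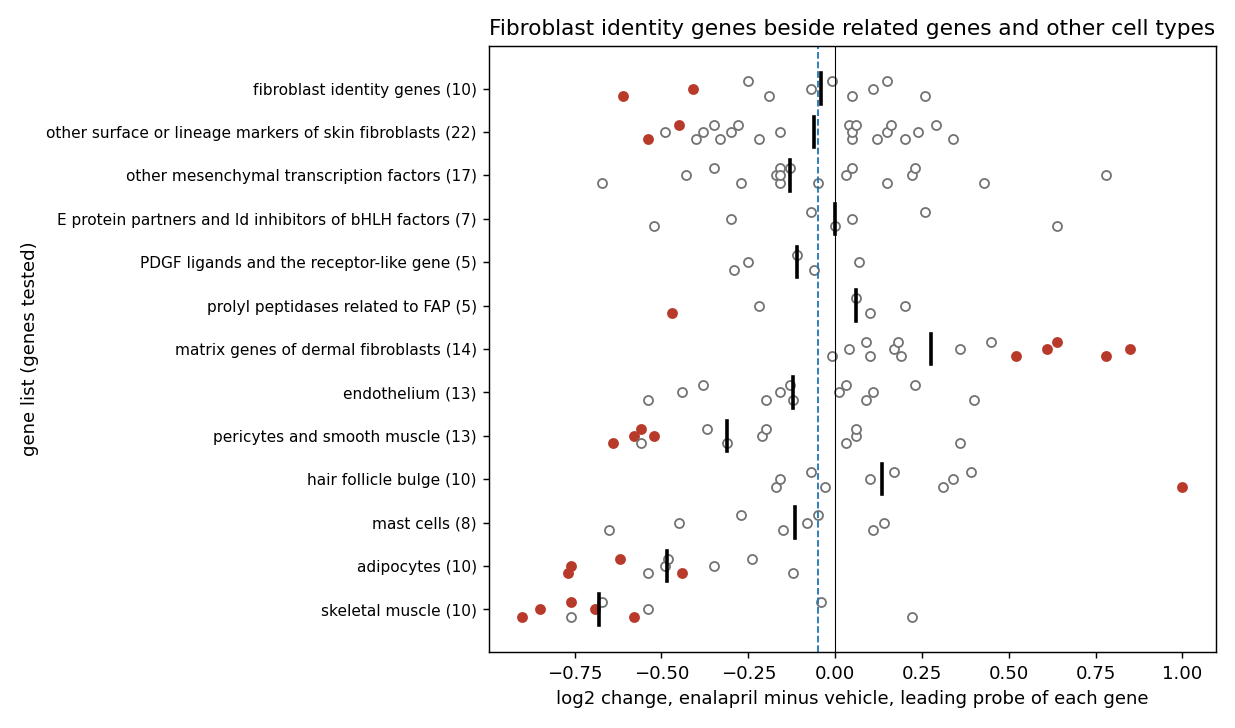
Log2 change, enalapril minus vehicle, on the leading probe of each gene, for the fibroblast identity genes (top) and 12 other lists, with black bars at list medians and filled red points at an adjusted p under 0.05. The dashed line is the median of all tested probes; the identity genes centre at −0.04, the matrix genes at 0.27 and the skeletal muscle genes at −0.68.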

How the data were processed

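Skin RNA from 8 mice was read on 8 Agilent mouse arrays with Cy3 as the single dye. Per the file headers, spot intensity came from Agilent Feature Extraction 9.1.3.1 (9.1 per the submitters' processing notes), with background subtracted and spatial trend removed inside each array but no scaling across arrays. The quality flags, deposited as 0 or 1, are other values and served to filter spots. The series matrix, deposited as log2 values, equals the logarithm of that intensity and is uncentred; further steps are not given in the sources used here.

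Spots flagged as outliers were dropped, and those left were averaged per probe as logarithms. Of 41174 probes, 47 had no usable spot on at least 1 array and were not analysed here. Each array's 75th percentile was subtracted. A probe was tested where it stood well above background on 4 or more arrays, with limma 3.58.1 (R 4.3.3), a model of group alone and two-sided p-values; probes of a gene were not merged. Probe names were updated through RefSeq (GRCm38.p6) by accession (22951 probes), symbol (6659) or synonym (3096). The 8468 probes not in that reference were given no gene name. Summed levels add the leading probes of a list on the linear scale. The number of arrays limits the precision.

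Named genes were all members, up to 3 genes with the smallest p in each list, Dpp4, Prrx2 and the PDGF ligands. Krt15, Col1a1, Fn1, Col6a2, Kdr, Pecam1, Sox9, Foxp1, Trp63, Myh11, Notch3, Cspg4, Mcam, Lipe, Atp2a1 and Myh4 were chosen after their values were seen. Members and lists were chosen with earlier results of these data known. The fit was tested on simulated data. Alternatives covered background correction, scaling, the dim-probe filter, the variance model, weighting of arrays, 1 probe per gene, replicate number as a block, and leaving out single arrays. In repaired normexp, the local background of 6 spots was set to the array median. No model with slide or scan as a term can be estimated, because each held 1 group.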

Additional observations from a re-analysis of the deposited data

Results flagged for a closer look

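In 34 groups of 4 values (17 probes in 2 groups), 4 had 1 array whose gap to its nearest neighbour, as a part of the group's range, was past Dixon's 95% critical value, which chance passes in about 1 in 20 groups. All 4 were on the enalapril 4 array. Pi16 was highest there, with a gap of 0.868 of the range. The second Fap probe (0.847) and both clone probes of Prrx1, A_51_P262972 (0.927) and A_52_P480842 (0.831), were lowest there. These 3 probes were each well above background on only 3 of the 4 enalapril arrays.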

How the results depend on the processing

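The count of called member probes, 2 as reported and all of them lower, became 0 with 0 lower by normexp, quantile normalization, array median centring, E1A control centring, the series matrix values, no filter on dim probes and the replicate block, and 0 to 2 with single arrays left out. It was 2 by repaired normexp, the filter on all 8 arrays, 1 probe per gene, robust variance estimation with a trend, array weights and an adjusted p under 0.10. Normexp without the repair called 0 of 28580 probes, against 2979 as reported and 1602 with the repair, and E1A control centring called 274. The median change of all probes moved to −0.41 in the series matrix values and 0.27 by normexp, and called probes were higher in 36.6% as reported, 46.6% by quantile normalization and 4.97% in the series matrix values.

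Without single arrays the whole table gave 396 to 6991 called probes, the highest without enalapril 4. In the replicate block, adjusted p was 0.101 for Cd34 and 0.0680 for Clec3b. The labels do not say that a number marks shared animals or days. Deviations of same-numbered arrays correlated at −0.13, 0.08, 0.17 and 0.03, and the best match was the same number for 2 of 4.

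Of 309 repeats for single member probes, 247 kept direction and side of the threshold, 28 lost the call (those of Cd34 or Clec3b) and 34 changed sign, none of them a called probe. Direction was fixed under the dim-probe filters, 1 probe per gene, the variance trend, the replicate block and the looser threshold, which kept the estimate. Sign changes by normexp were 0.68 for the dimmer Pdgfra probe, −0.09 for Pdgfrb and −0.15 for the third Prrx1 probe, and by repaired normexp 0.15 and −0.07 for the first and last of these. Quantile normalization gave 0.12 for Pi16 and 0.10 for the leading Prrx1 probe, and median centring −0.02 for the third. E1A centring gave −0.02 for Fap, −0.05 for the third Prrx1 probe and −0.01 for the variant 2 probe. The series matrix gave −0.32 for Fap, −0.11 for Pdgfra, −0.25 for Pdgfrb, −0.22 for Twist1 and −0.35, −0.31 and −0.16 for Prrx1 probes 3, 4 and 5. Array weights gave −0.07 for Fap and 0.03 for the leading Prrx1 probe. With single arrays left out, ranges were −0.12 to 0.19 for Fap, −0.12 to 0.04 for the dimmer Pdgfra probe, and −0.18 to 0.20, −0.27 to 0.05, −0.16 to 0.18 and −0.08 to 0.19 for Prrx1 probes 1 to 4. Without the filter on dim probes, the 2 untested probes were at 0.30 (Fap, adjusted p = 0.814) and 1.25 (Prrx1, 0.154). The causes were not tested. Leaving out 1 array, the permutation tests of the 2 pairs cannot go below 0.0571.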

Other observations

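Among named genes outside the members, the patterns most like that of Pdgfra over the 8 arrays were those of Pcdh19 (Pearson r = 0.982), Rnf139 (0.981) and Zbtb10 (0.974). Those most like Dpt were Fam136a (0.975), Ccdc130 (0.972) and Sf3b6 (0.971), and those most like Twist2 were Grik5 (0.980), Il34 (0.959) and Ece1 (0.939). None of these 9 genes passed the test between groups. They are the highest among the tested probes with a gene name, over only 8 arrays, and are given as a description. Each group was on a slide of its own, and r was taken without centring by group.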
